A study of Sus scrofa with 18 samples.

Results

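Retinas of piglets that carried the most mRNA of somatostatin (SST), a small inhibitory peptide of retinal neurons, were compared with those that carried the least. The arrays were chosen by their SST level alone: all 18 arrays of the study were ranked by the 1 probe set annotated to SST. The 6 arrays with the highest level are called SST-high, the 6 with the lowest SST-low, and the 6 between them were left out of the comparison. The comparison thus holds 12 of 18 arrays. These groups were made from a measured level and are not groups of the study, and SST itself is not a result of the comparison.

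The tissue was retina from male domestic piglets (Landrace crossed with Large White), collected at postnatal day 38, with 1 Affymetrix pig array per piglet. The study's own groups are 9 piglets on pig milk replacer (control) and 9 on the same replacer with sialyllactose, a milk sugar that carries sialic acid, in feeding that began with animals 3 days old. The labels name no transgene, injury or disease, and every piglet received milk replacer. The SST-high arrays were 4 control and 2 sialyllactose arrays, the SST-low arrays 3 and 3, and the middle arrays 2 and 4. Each value is a log2 level as deposited, so a difference of 1 is a 2-fold difference. As a check of the tissue, rod arrestin (SAG), an abundant protein of rod photoreceptors, had levels of 10.25 to 10.81 over all 18 arrays and stood above 99.9% of the tested probe sets.

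In the mammalian retina somatostatin is made by sparse wide-field amacrine cells, whose cell bodies lie mostly in the ventral retina in rabbit and human. The peptide is cut from a larger precursor by prohormone convertases, stored in dense-core granules and released onto receptors coupled to inhibitory G proteins, which lower cyclic AMP and calcium entry in photoreceptors, bipolar cells and other neurons. It is also the hormone that restrains release of growth hormone from the pituitary. Because RNA came from whole tissue, fewer cells of a type and less RNA per cell cannot be told apart.

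SST was measured at 6.91 in sialyllactose replicate 1 and at 6.22 in control replicate 4, far above every other array. Control replicates 5, 9 and 8 followed at 4.40, 4.21 and 3.66, and sialyllactose replicate 9 at 3.65. The SST-low arrays were control replicates 7, 3 and 6 at 3.08, 3.03 and 2.83 and sialyllactose replicates 7, 4 and 3 at 3.08, 2.82 and 2.55. Within the SST-high group, then, 2 arrays carried most of the distance. Control replicates 5 and 9 lay between these and the rest of the series. Control replicate 8 and sialyllactose replicate 9 lay close to the middle arrays. At the upper limit the last SST-high array stood at 3.65 and the first middle array at 3.61, a gap of 0.04. At the lower limit the last middle array stood at 3.15 and the first SST-low array at 3.08, a gap of 0.07. The group means differed by 1.95, or 3.85-fold, and the whole range over 18 arrays was 4.36, or 20.6-fold. These values chose the arrays and carry no test. The mean SST level over all arrays, 3.68, exceeded 46.3% of the tested probe sets, so the gene was of middling brightness on these arrays.

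**Figure D1:**
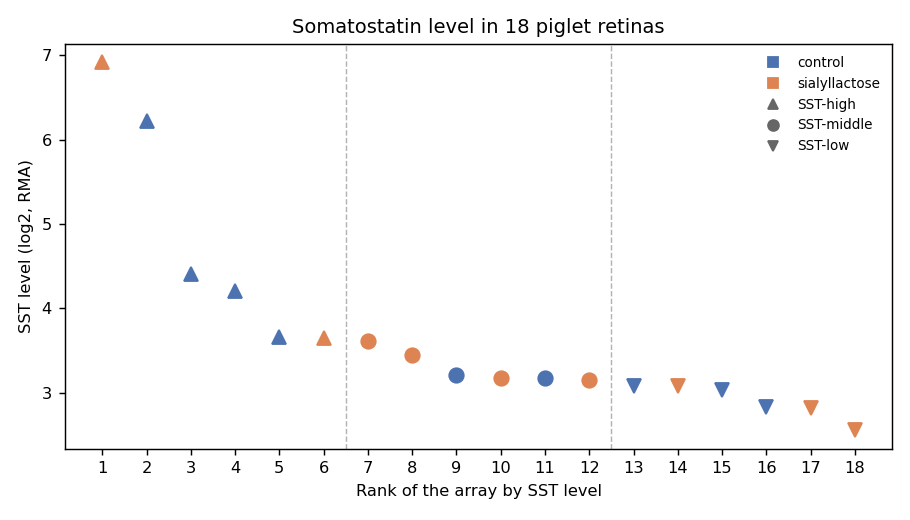
SST level (log2, vertical axis) of each of the 18 arrays, ordered by rank (horizontal axis), with colour for diet, symbol shape for SST group and dashed lines at the group limits. Sialyllactose replicate 1 at 6.91 and control replicate 4 at 6.22 stand apart from the other arrays, which lie between 2.55 and 4.40, with gaps of 0.04 and 0.07 at the limits.

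Diet had not been used to rank the arrays. SST was at 2.83, 3.21 and 6.22 in control (lowest, median and highest of 9) and at 2.55, 3.17 and 6.91 with sialyllactose, so the ranges of the diets overlapped almost fully. The difference, sialyllactose minus control, was -0.16 (95% interval -1.18 to 0.86, limma adjusted p 0.977 with Benjamini-Hochberg over all probe sets). Its sign rested on single arrays, being -0.57 without sialyllactose replicate 1, 0.15 without control replicate 4 and -0.27 without both. The top array of each diet stood far above the others of that diet.

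The main comparison asked which other transcripts differed between SST-high and SST-low retinas once diet was allowed for. Complement C1R and the collagen gene COL5A1 were lower in every SST-high array than in every SST-low array. Such separation, in either direction, was seen for 10 of 5709 genes (0.175%). The dorsal retina genes ALDH1A1 and EFNB2 and a block of interferon-induced genes had lower means in the SST-high arrays, with overlapping groups. STC1, CCND2 and SPARCL1 had higher means there than in the SST-low arrays. For CCND2 and SPARCL1, however, the median was highest in the middle arrays. Over all probe sets none of the genes named here passed the test, and genes of the somatostatin system itself differed little.

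In limma, 0 of 16798 probe sets had an adjusted p under 0.05 (0% called), and the lowest adjusted p was 0.451, for C1R. At an unadjusted p under 0.05 limma gave 633 probe sets (3.77%), of which 376 (2.24%) were higher and 257 (1.53%) lower in the SST-high arrays, where 840 would fall by chance. Represented by 1 probe set each, 5709 genes were described, and 213 of them (3.73%) reached an unadjusted p under 0.05, 108 (1.89%) higher and 105 (1.84%) lower. The SST-high and SST-low values did not overlap for 10 genes (0.175%), 6 of them higher (0.105%) and 4 lower (0.0701%). That number was not tested against chance, so separation of the groups is given as description only. The median absolute difference was 0.06, and for 97.6% of the probe sets the 95% interval excluded a difference beyond 1.5-fold, for 99.4% one beyond 2-fold. Since the labels do not describe litters, p-values measure the spread between these arrays.

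C1R encodes a serine protease that starts the classical complement cascade. It was at 1.63, 1.84 and 2.29 in the SST-high arrays (lowest, median, highest) and at 2.35, 2.72 and 3.01 in the SST-low arrays. All 6 SST-high arrays lay below all 6 SST-low arrays, and the middle arrays, at 1.63, 2.03 and 2.21, also lay below every SST-low array. The difference was -0.82 (95% interval -1.10 to -0.53), with an unadjusted limma p of 2.7e-05 and an adjusted p of 0.451. It was -0.80 among control arrays and -0.85 among sialyllactose arrays. C1R was dim, with a level that exceeded only 19.1% of the tested probe sets. The alternative with the dimmest 50% left out therefore did not test it. Over the 30 fits that did, the adjusted p of C1R in limma lay between 0.0903 and 0.99995. With single arrays left out the difference ran from -0.92 to -0.75.

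COL5A1 encodes a chain of type V collagen, a fibrillar collagen of vessel walls and connective tissue. Its levels were 4.36, 4.47 and 4.64 in the SST-high arrays and 4.71, 4.79 and 5.27 in the SST-low arrays. These groups did not overlap either, while the middle arrays spanned both, from 4.53 to 5.34. The difference was -0.47 (95% interval -0.66 to -0.28, limma adjusted p 0.729). A dimmer COL5A1 probe set differed by -0.14 (95% interval -0.41 to 0.13), the same sign with a smaller size.

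SLC8B1, the mitochondrial sodium-calcium exchanger, was the last of the strongly separated lower genes, with 1.44, 1.52 and 1.54 against 1.69, 1.72 and 1.74. Its groups were narrow and apart, although the level exceeded only 4.88% of the tested probe sets. NCOA7, a nuclear receptor coactivator, was at 4.75, 4.88 and 4.96 against 5.02, 5.05 and 5.29 and completed the 4 lower genes whose groups did not overlap. The 6 such genes on the higher side were ATP6V0C, SPECC1L, MSL1, TBC1D19, SCYL3 and IFRD2. ATP6V0C, a subunit of the proton pump that acidifies secretory vesicles, stood at 9.69, 9.70 and 9.72 against 9.64, 9.66 and 9.68. Its difference was 0.05 (95% interval -0.06 to 0.15), so groups can separate here at a very small size.

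Of the genes with higher means in SST-high arrays, STC1 had the smallest p. STC1 encodes stanniocalcin, a secreted glycoprotein of calcium and phosphate balance, and was at 3.32, 3.54 and 3.75 against 3.02, 3.10 and 3.33. All but 1 of the SST-high arrays lay above every SST-low array. The difference was 0.39 (95% interval 0.21 to 0.58), with 0.39 among control arrays. MSL1, a scaffold of a histone acetyltransferase complex, was at 4.57, 4.72 and 4.87 against 4.31, 4.39 and 4.54, without overlap. TBC1D19, which carries a domain found in Rab GTPase regulators, was at 3.57, 3.65 and 3.97 against 3.18, 3.39 and 3.51, again without overlap. CCND2, a D-type cyclin, was at 5.78, 6.02 and 6.24 against 5.43, 5.68 and 5.89, and here 4 SST-high arrays exceeded every SST-low array. SPARCL1, a matricellular protein, was among the brightest genes, at 7.84, 7.99 and 8.27 against 7.38, 7.66 and 7.90.

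The other higher genes among the 12 with the smallest p were RMND5A, TMEM138, IL27RA, SLC9A3R2, NFATC1, SVBP and SZRD1, with differences of 0.24 to 0.38. RMND5A belongs to a ubiquitin ligase complex, TMEM138 is a protein of primary cilia, IL27RA a cytokine receptor chain, and NFATC1 a calcium-dependent transcription factor. For RMND5A the dimmer probe set differed by -0.01, so that its probe sets differed in sign. The 12 lower genes were C1R, COL5A1, SLC8B1, PSME1, EFNB2, PARP12, ISG15, SP140, MX1, PSME2, APOA1 and EIF2AK2. In limma the adjusted p was 0.9999 for all of these 24 genes apart from C1R and COL5A1. All 24 kept their sign when any 1 of the 12 arrays was left out, which their choice by smallest p in these arrays makes likely. In a limma fit on the SST level itself over all 18 arrays, 10 of them had an unadjusted p under 0.05. In that fit 685 of 16798 probe sets did so. It shares the 12 arrays that chose the genes, so neither count is separate support.

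**Figure D2:**
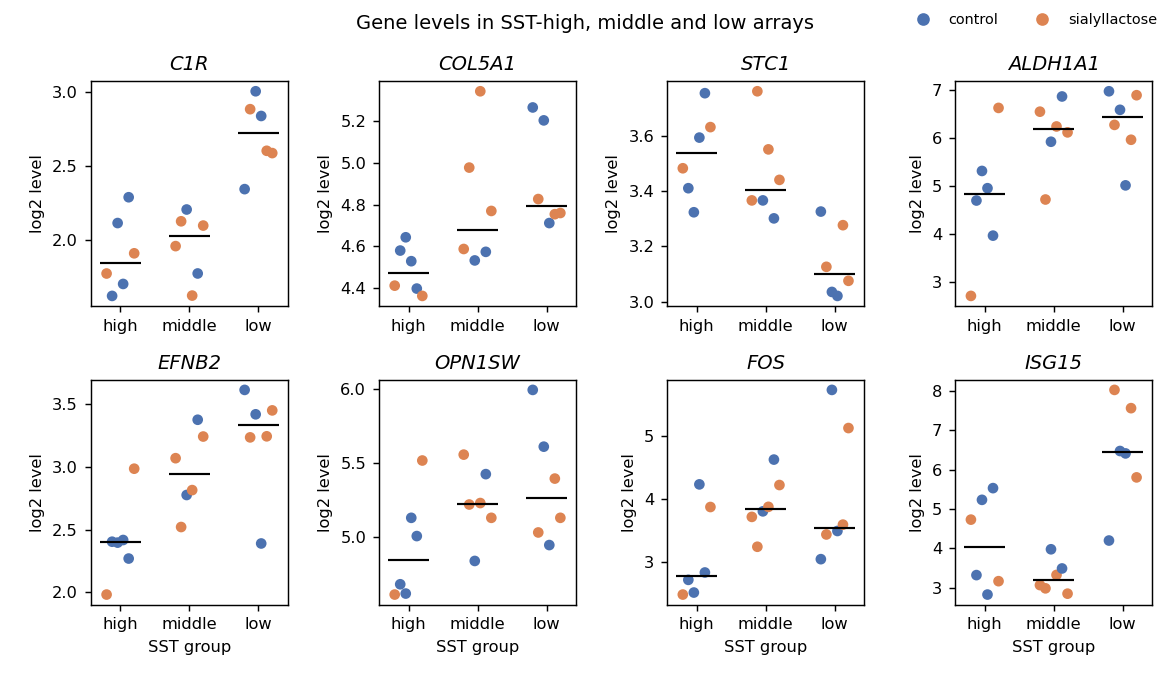
Log2 level (vertical axes) of 8 genes in the SST-high, middle and low arrays, with 1 point per array, colour for diet and a line at the group median. C1R and COL5A1 separate the 6 high from the 6 low arrays, whereas ALDH1A1, EFNB2, OPN1SW, FOS and ISG15 overlap and ISG15 has its lowest median in the middle arrays.

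The receptors of somatostatin and their signalling partners were measured at nearly equal levels. SSTR5, a receptor coupled to inhibitory G proteins, was at 4.30, 4.42 and 4.60 in the SST-high arrays and 4.14, 4.43 and 4.53 in the SST-low arrays, with fully interleaved groups. Its difference was 0.05 (95% interval -0.12 to 0.21). SSTR3, a receptor enriched on neuronal cilia, was dimmer and differed by -0.10 (95% interval -0.27 to 0.06), while its other probe set differed by 0.04. GNAI1 and GNAI2, inhibitory G protein subunits, differed by 0.00 and -0.01, and KCNJ3, a subunit of the potassium channels they open, by -0.02. Of the 5 tested genes of this list, 2 were higher and 3 lower, none had an unadjusted p under 0.05 in limma, and the median difference was -0.01, against 0.01 over all tested genes. SSTR1 was among the dimmest probe sets left out of the fit, and SSTR2 and SSTR4 were not analysed here.

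Other neuropeptides had small differences. NPY, a peptide of amacrine cells, was at 1.98, 2.39 and 3.31 against 2.19, 2.38 and 3.31, with an interval of the difference from -0.56 to 0.34. SCG2, the precursor of secretoneurin, was at 8.08, 8.22 and 8.47 against 8.19, 8.28 and 8.54, a difference of -0.07 (95% interval -0.25 to 0.11). PDYN, the precursor of the opioid dynorphins, was at 1.54, 1.78 and 2.12 against 1.59, 1.95 and 2.49. The groups overlapped for each of these peptides. TRH, the thyrotropin-releasing hormone precursor, differed by -0.16 and CARTPT, the precursor of a peptide of amacrine and ganglion cells, by 0.13. Of 11 tested neuropeptide genes, 2 were higher and 9 lower, 0 reached an unadjusted p under 0.05 in limma, and the median difference was -0.07. CCK was among the dimmest probe sets left out, and VIP, TAC1, PENK and CRH were not analysed here.

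The enzymes and granule proteins through which somatostatin passes were also close. PCSK1, a convertase that cuts prohormones, was at 2.69, 3.38 and 3.52 in the SST-high arrays and 2.74, 2.92 and 3.45 in the SST-low arrays, a difference of 0.20 (95% interval -0.11 to 0.52). PCSK2, the other main neuroendocrine convertase, differed by 0.09 (95% interval -0.18 to 0.36), and SCG5, its chaperone, by 0.08 (95% interval -0.06 to 0.22). The granule proteins CHGA and CHGB, which help to load dense-core granules, differed by -0.01 (95% interval -0.15 to 0.14) and 0.00 (95% interval -0.21 to 0.21). CHGA and PCSK2 were dim, with levels that exceeded only 4.86% and 13.7% of the tested probe sets. RMA shrinks differences at such levels, so their small differences say little. CPE, another key gene, was not analysed here. PAM, which amidates many other peptides, differed by 0.05. Of 13 tested genes of peptide processing and secretory granules, 6 were higher and 7 lower, the median difference was 0.00, and 0 had an unadjusted p under 0.05 in limma. For CHGB, measured in RNA of whole tissue, the interval excludes a difference of more than 0.21 in either direction. A change confined to the sparse somatostatin cells was not tested.

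Genes of amacrine cells, the class that holds the somatostatin neurons, also had small differences, apart from a variable TFAP2C. GAD1, which makes the transmitter GABA, was at 7.07, 7.42 and 7.61 against 7.17, 7.31 and 7.51, a difference of 0.05 (95% interval -0.16 to 0.27). GAD2, its partner enzyme at nerve endings, differed by 0.06 (95% interval -0.13 to 0.24). CALB2, the calcium-binding protein calretinin of amacrine and ganglion cells, differed by 0.14 (95% interval -0.04 to 0.31). TFAP2C, a transcription factor of some amacrine cells, differed by -0.35 with a wide interval from -0.92 to 0.22, and it ranged from 1.98 to 3.67 within the SST-low arrays. Of 6 tested amacrine genes 5 were higher and 1 lower, with a median of 0.06 and 0 at an unadjusted p under 0.05 in limma.

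Ganglion cell genes had small differences. RBPMS, an RNA-binding protein that marks ganglion cells, differed by 0.17 (95% interval -0.07 to 0.41), ELAVL4, a neuronal RNA-binding protein, by 0.12, and NEFL, the light neurofilament chain, by 0.08. All 7 tested ganglion genes were higher in the mean of the SST-high arrays, by 0.04 to 0.17 and with a median of 0.08, and 0 of them had an unadjusted p under 0.05 in limma, where 55.2% of all tested genes were higher. The sign depended on the arrays and the fit, with 7 higher among control arrays (median 0.20), 2 higher and 5 lower among sialyllactose arrays (median -0.03), and 1 higher and 6 lower with the ALDH1A1 level as a covariate (median -0.06). The other 2 probe sets of RBPMS differed by -0.11 and 0.00, so the sign of RBPMS depended on the probe set. The summed level of the list, as the mean deviation of its genes from their means, ran from -0.20 to 0.21 in the SST-high arrays and from -0.29 to 0.08 in the SST-low arrays.

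ALDH1A1, a retinaldehyde dehydrogenase that makes retinoic acid and is concentrated in the dorsal retina, showed one of the widest differences. It was at 2.72, 4.83 and 6.62 in the SST-high arrays, 4.72, 6.18 and 6.86 in the middle arrays and 5.01, 6.43 and 6.97 in the SST-low arrays. Of the SST-high arrays 4 lay below every SST-low array, and the array with the most SST, sialyllactose replicate 1, had the least ALDH1A1 of all 18. The difference was -1.56 (95% interval -2.70 to -0.41, unadjusted limma p 0.011, adjusted p 0.9999). A second ALDH1A1 probe set differed by -1.25 (95% interval -2.08 to -0.43). Fitted on the SST level over all 18 arrays and scaled to the same gap, the difference was -1.41, with an unadjusted limma p of 0.00013 and an adjusted p of 0.552.

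Single arrays moved this value. Without sialyllactose replicate 1 the ALDH1A1 difference was -0.94, and without sialyllactose replicate 9, the SST-high array with the most ALDH1A1, it was -2.13. Without both arrays above an SST level of 6 it was -0.88, with an unadjusted limma p of 0.068. ALDH1A1 thus lay lower in the SST-high mean in each of these fits, at sizes that varied widely between them.

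EFNB2, the ligand ephrin-B2 that marks dorsal retina in development, gave a similar picture. It was at 1.98, 2.40 and 2.99 in the SST-high arrays, 2.52, 2.94 and 3.38 in the middle arrays and 2.39, 3.33 and 3.61 in the SST-low arrays. The medians stepped up from high to middle to low, and 5 of 6 SST-high arrays lay below every middle array, but control replicate 6 at 2.39 kept the low group in overlap. The difference was -0.79 (95% interval -1.21 to -0.38), and it was -0.77 among control arrays and -0.83 among sialyllactose arrays. With the ALDH1A1 level as a covariate the EFNB2 difference was -0.30. The other dorsal genes tested had smaller differences. BMP4, a dorsal growth factor, differed by 0.17 (95% interval -0.18 to 0.53), and TBX2, a dorsal transcription factor, by -0.08 (95% interval -0.29 to 0.13). Of 4 tested dorsal genes 3 were lower, 2 of them at an unadjusted p under 0.05 in limma, beside 1.84% of all genes in that direction. The 1 ventral gene tested, BMPR1B, a receptor of bone morphogenetic proteins, was at 3.53, 4.05 and 4.36 against 3.43, 3.71 and 4.34, a difference of 0.30 (95% interval -0.02 to 0.63), and 0.05 in its other probe set. No label records which region of the retina was sampled, and a part of sampling position in these values was not tested.

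**Figure D3:**
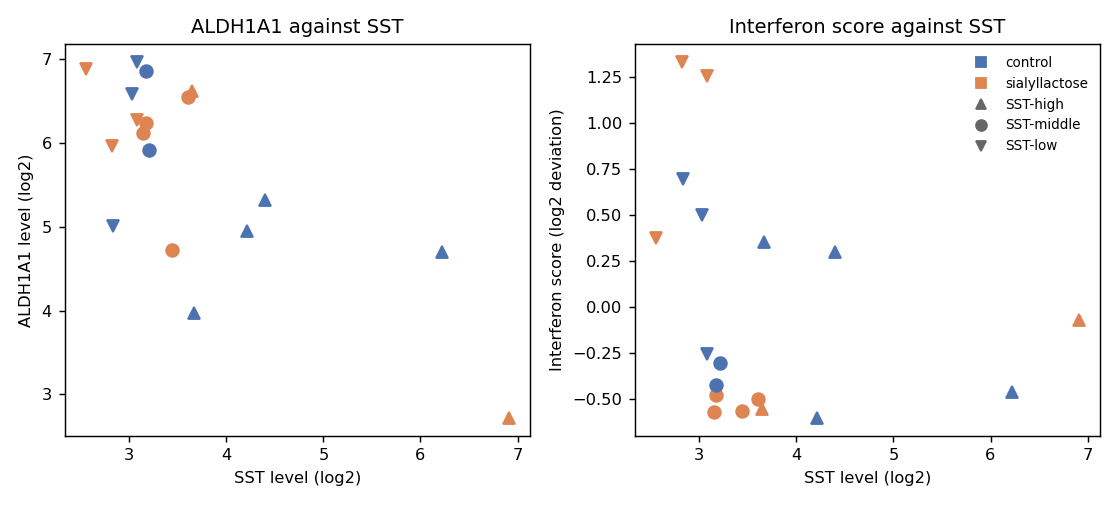
ALDH1A1 level (left, log2) and interferon score (right, mean log2 deviation of 22 genes from their own means) against SST level (log2, horizontal axes) in all 18 arrays, with colour for diet and symbol shape for SST group. ALDH1A1 is lowest, at 2.72, in the array with the most SST, while the interferon score is low in the middle arrays, from -0.57 to -0.31, and high in 5 of the 6 SST-low arrays.

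Photoreceptor genes differed in part. OPN1SW, the opsin of short-wavelength cones, was at 4.61, 4.84 and 5.52 in the SST-high arrays, 4.84, 5.22 and 5.56 in the middle arrays and 4.95, 5.26 and 5.99 in the SST-low arrays. The 3 lowest SST-high arrays lay below every SST-low array, and the difference was -0.44 (95% interval -0.86 to -0.02, unadjusted limma p 0.042). Leaving out single arrays moved it between -0.63 and -0.28, and with the ALDH1A1 level as a covariate it was -0.09. The cone genes ARR3, an arrestin, and GRK7, an opsin kinase, differed by -0.13 and -0.11, and PDE6C, the cone phosphodiesterase, by 0.11, so that of 5 tested cone genes 2 were higher and 3 lower. Of the rod genes, CNGA1, a subunit of the rod channel, differed by -0.30 (95% interval -0.70 to 0.09), and SAG by 0.07 (95% interval -0.08 to 0.23).

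Of all 5709 genes described, the interferon-induced gene ISG15 had the largest difference in size. ISG15, a ubiquitin-like protein induced by interferon, was at 2.83, 4.03 and 5.53 in the SST-high arrays and 4.20, 6.44 and 8.02 in the SST-low arrays, and 5 of 6 SST-low arrays exceeded every SST-high array. The difference was -2.17 (95% interval -3.48 to -0.86), or 0.222-fold. MX1, an antiviral GTPase, was at 4.56, 5.30 and 5.86 against 5.18, 6.40 and 7.77, a difference of -1.23 (95% interval -1.99 to -0.48). EIF2AK2, the kinase PKR that senses double-stranded RNA, was at 4.95, 5.55 and 6.10 against 5.41, 6.64 and 7.02. PSME1 and PSME2, the subunits of an interferon-induced proteasome activator, differed by -0.54 and -0.38, and PARP12, an antiviral ADP-ribosyltransferase, by -1.02. All 22 tested genes of the interferon list were lower in the SST-high mean, 16 of them at an unadjusted p under 0.05 in limma beside 1.84% of all genes in that direction, with a median difference of -0.75 and 0 at an adjusted p under 0.05.

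The levels of these genes were not ordered as SST was over the high, middle and low arrays. ISG15 in the middle arrays was at 2.85, 3.20 and 3.98, below the median of the SST-high arrays, and all 6 SST-low but also 3 of 6 SST-high arrays exceeded every middle array. Of the 22 genes, 18 had a lower median in the middle arrays than in the SST-high arrays. The interferon score was at -0.60, -0.27 and 0.35 in the SST-high arrays, -0.57, -0.49 and -0.31 in the middle arrays and -0.25, 0.60 and 1.33 in the SST-low arrays. In the limma fit on the SST level over 18 arrays only 1 of the 22 genes had an unadjusted p under 0.05, and the median difference was -0.28.

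The size of the interferon difference varied with the arrays used. Among control arrays 20 of 22 genes were lower, with a median of -0.45 and 0 of the lower genes at an unadjusted p under 0.05 in limma. The 1 gene at that limit among control arrays was OAS1, an antiviral oligoadenylate synthetase, which was higher in the SST-high mean there, by 0.45, and differed by -0.94 among sialyllactose arrays. Among sialyllactose arrays, 2 SST-high against 3 SST-low, 22 of 22 genes were lower, with a median of -1.16. Of these 22 genes 18 were at that limit, beside 2.14% of all genes in that direction. The test of the difference between diets, an interaction in limma, gave 0 of 16798 probe sets at an adjusted p under 0.05 and 638 at an unadjusted p under 0.05, and its adjusted p for ISG15 was 0.9998. Of the 22 genes, the number lower at an unadjusted p under 0.05 in limma was 16 with all 12 arrays. It was 8 without sialyllactose replicate 9, 9 without sialyllactose replicate 4, and 10 without sialyllactose replicate 7 or control replicate 9. Without both arrays above an SST level of 6 it was 6, beside 1.31% of all genes in that direction. With the interferon score as a covariate the difference was -0.55 for C1R, -2.28 for ALDH1A1 and -1.08 for EFNB2.

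Markers of immune cells were set beside the interferon genes and C1R. FCER1G, a signalling chain of Fc receptors on microglia and other myeloid cells, was at 1.65, 1.73 and 1.83 against 1.68, 1.95 and 2.36, a difference of -0.26 (95% interval -0.47 to -0.05). AIF1, a microglial actin-binding protein, differed by -0.23, C1QC, a chain of complement C1q, by -0.33, and P2RY12, a receptor of resting microglia, by -0.06, each with an interval that included 0. LAPTM5, a lysosomal protein of blood-derived cells, and CD14, a receptor for bacterial lipopolysaccharide, had higher means in the SST-high arrays, by 0.21 and 0.09. Of 7 tested genes 2 were thus higher and 5 lower, with a median of -0.21. Most of them were dim, and the level of FCER1G exceeded only 11.0% of the tested probe sets. With the dimmest 50% left out 1 gene of the list remained, CTSS, which differed by -0.21. Among the lower genes 1 had an unadjusted p under 0.05 in limma, beside 1.84% of all genes in that direction. Without control replicate 3 the median was -0.01, with 3 higher and 4 lower genes, and the gene at that limit was a higher one. Their summed level ran from -0.15 to 0.20 in the SST-high, -0.15 to 0.11 in the middle and -0.14 to 0.59 in the SST-low arrays, and their part in the C1R and interferon values was not tested. RMA values have no zero, so no marker can be called absent.

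Pigment epithelium, a neighbouring tissue that can adhere to the dissected retina, was followed through its own genes. TTR, a carrier of thyroid hormone and retinol made there, was at 4.78, 7.07 and 8.32 in the SST-high arrays and 4.54, 6.37 and 7.67 in the SST-low arrays, a difference of 0.61 (95% interval -0.67 to 1.88) that was -0.02 without both arrays above an SST level of 6. TYR, the melanin enzyme tyrosinase, was at 2.68, 3.06 and 3.12 against 2.66, 2.71 and 2.85, a difference of 0.24 (95% interval 0.07 to 0.42). OCA2, a transporter of melanosomes, BEST1, a chloride channel of the epithelium, and MITF, the regulator of pigment cells, were lower in the SST-high mean, by differences of -0.14, -0.06 and -0.03. Of 7 tested genes 4 were higher and 3 lower, with a median of 0.11. Among the higher genes 1 had an unadjusted p under 0.05 in limma, beside 1.89% of all genes in that direction. The list median was -0.04 without sialyllactose replicate 1 and -0.05 without both arrays above an SST level of 6. Their summed level ran from -0.39 to 0.45 in the SST-high and from -0.41 to 0.26 in the SST-low arrays, and its part in the other differences was not tested.

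Immediate early genes, which neurons switch on within minutes of activity or handling, and which cyclic AMP can induce, varied widely between arrays. FOS, a transcription factor of this class, was at 2.48, 2.78 and 4.23 in the SST-high arrays, 3.24, 3.84 and 4.63 in the middle arrays and 3.05, 3.54 and 5.74 in the SST-low arrays. Of the SST-high arrays 4 lay below every SST-low and every middle array, while the other SST-high arrays lay among them. The difference was -0.96 (95% interval -1.97 to 0.05, unadjusted limma p 0.061). EGR1, of the same class, differed by 0.03 with a wide interval from -1.05 to 1.12. BTG2, an antiproliferative early gene, was at 3.43, 4.15 and 4.31 against 4.15, 4.48 and 5.002, a difference of -0.43 (95% interval -0.72 to -0.13). NR4A2, an orphan nuclear receptor, differed by 0.18 (95% interval 0.02 to 0.35). Of 20 tested genes 8 were higher and 12 lower, and the median difference was -0.03. In each direction 1 gene had an unadjusted p under 0.05 in limma, beside 1.89% of all genes higher and 1.84% lower.

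The growth hormone and insulin-like growth factor genes, which somatostatin governs in the endocrine axis, were near equality. IGF1, the growth factor itself, was at 3.53, 3.72 and 3.81 against 3.44, 3.77 and 3.996, a difference of -0.04 (95% interval -0.22 to 0.14). GHR, the growth hormone receptor, differed by 0.12 and IGF1R, the IGF1 receptor, by 0.07. GH1, growth hormone itself, differed by -0.17 (95% interval -0.36 to 0.01) and IGFALS by -0.18 (95% interval -0.42 to 0.07). STAT5A, a transcription factor downstream of the growth hormone receptor, differed by 0.21 (95% interval 0.03 to 0.39). Of 12 tested genes 6 were higher and 6 lower, with a median of 0.01. Among the higher genes 1 had an unadjusted p under 0.05 in limma, beside 1.89% of all genes in that direction.

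**Figure D4:**
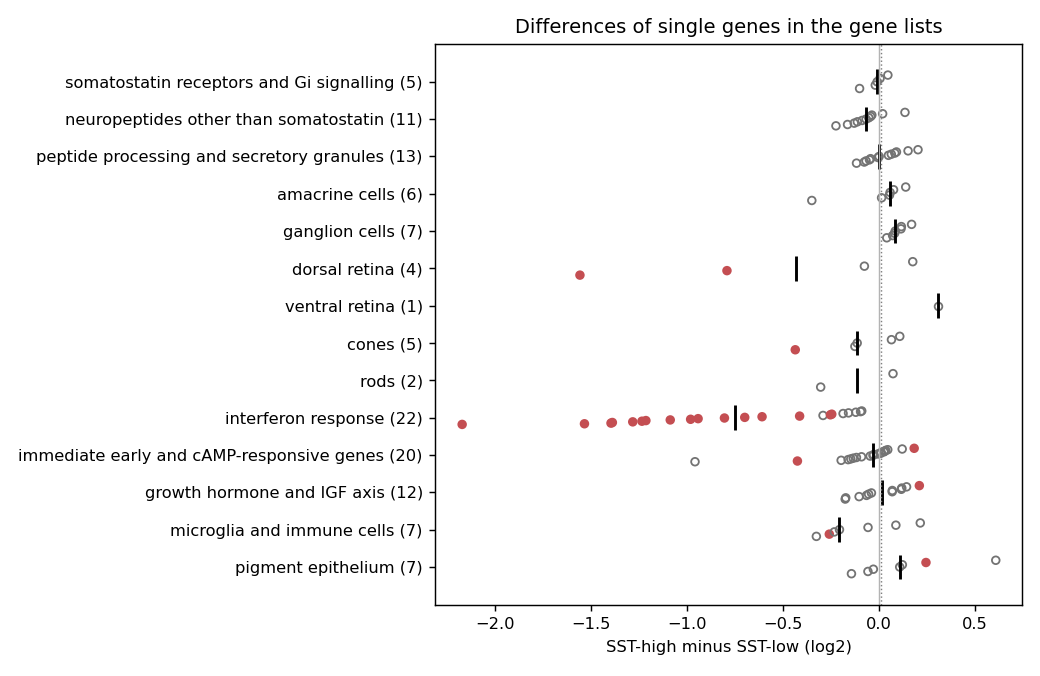
Difference between SST-high and SST-low arrays (log2, horizontal axis) of each tested gene in 14 gene lists, with the number of tested genes in brackets, a black bar at the list median, a dotted line at the median of all tested genes and filled points for an unadjusted limma p under 0.05. The interferon list lies wholly to the left, with a median of -0.75, and the lists of the somatostatin system, neuropeptides and peptide processing lie close to 0.

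The remaining 23 lists, among them bipolar, horizontal and Mueller cells, lens, muscle, blood, vessels, the circadian clock and housekeeping complexes, held 306 tested entries and 2 lists with none tested. Their median differences ran from -0.11 to 0.15. At an unadjusted p under 0.05 in limma 2 entries were higher and 4 lower, beside 1.89% and 1.84% of all genes. GFAP, the filament of astrocytes and stressed Mueller cells, was measured by 4 probe sets with differences of -0.15, 0.20, -0.21 and 0.15, so it has no settled sign here. The arrays themselves were alike, with correlations of 0.981 to 0.992 between pairs. The actin control signal at the 3' end minus that at the 5' end, a measure of RNA integrity, was at 2.99, 3.30 and 3.68 in the SST-high arrays and 2.87, 3.10 and 3.80 in the SST-low arrays. For the GAPDH control the medians were 1.49 and 1.37, and for the EF1A control 1.24 and 1.09. The median was thus higher in the SST-high arrays for each control, with overlapping ranges. A part of RNA integrity in the other differences was not tested.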

How the data were processed

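Total RNA from retina was hybridised to Affymetrix pig arrays, 1 per piglet. The authors deposited 1 log2 value per probe set and array, made with Affymetrix Expression Console and RMA per the submitters' processing notes. Settings and versions are not given in the sources used here. RMA places all arrays on 1 distribution, gives no detection call and shrinks differences of dim probe sets. All value columns were matched to samples by name.

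Of 24123 probe sets, 124 controls and the dimmest 30% (7200, by mean over 18 arrays) were left out. SST was then set aside, which left 16798. Symbols came from the platform annotation: 10099 probe sets had 1 symbol, 198 several and 13826 none, and only the first were named. A RefSeq gene table matched 9989 of them and changed 0 symbols. The brightest tested probe set stood for a gene. No coordinates or sequences are given, since no genome was used.

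SST-high minus SST-low was fitted in limma 3.58.1 (R 4.3.3, lmFit and eBayes without trend) with diet as covariate, Benjamini-Hochberg adjustment over all tested probe sets and a threshold of 0.05. SST by diet was fitted on all 18 arrays. The interaction of SST group with diet was fitted on the same 12 arrays. This step was tested on simulated data with known differences. A list score is the mean deviation of its genes from their means over 18 arrays.

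The members, the 37 gene lists and the key genes were chosen with earlier results of these data known. The genes named are the 12 with the smallest p in each direction, then 30 key genes where tested (21 were, 2 were dim, the others were not analysed here), then up to 2 members of each list described. Which 14 lists are described in full was chosen after their values were seen, as were the further list members given as examples and the genes whose groups did not overlap. The rule named 62 genes, of which 10 had several tested probe sets, and in 5 these differed in sign. The alternatives tried were other filters, scalings, covariates, splits and ways to enter SST, array weights, an intensity trend, gene means, the replicate number as a block, single diets and leaving out each array. Precision is limited by the number of arrays.

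Control and sialyllactose arrays share replicate numbers. Correlations of the deviations of same-numbered arrays ran from -0.11 to 0.16 and were above 0.1 in 3 of 9 pairs. These values do not settle whether the numbers pair piglets, and no label says so. The numbers were not taken as pairs in the main fit and were entered as a block among the alternatives.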

Additional observations from a re-analysis of the deposited data

Results flagged for a closer look

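In 9 of 126 groups looked at, the gap from 1 array to the nearest other, divided by the range of the group, exceeded Dixon's 95% critical value for that group size. By the construction of that limit, chance passes it in about 1 in 20 groups. SST was at 6.22 in control replicate 4, with the next control array at 4.40, and at 6.91 in sialyllactose replicate 1, with the next sialyllactose array at 3.65. Within the SST-high arrays, SVBP was at 4.17 in control replicate 5 with the nearest array at 4.37, PDE6C at 1.45 in control replicate 8 with the nearest at 1.67, and OCA2, a melanosome protein, at 1.58 in control replicate 5 with the nearest at 1.78. Within the SST-low arrays, EFNB2 was at 2.39 in control replicate 6 with the nearest at 3.24, TFAP2C at 1.98 in sialyllactose replicate 3 with the nearest at 3.06, and CTSS, a lysosomal protease of microglia, at 4.19 in sialyllactose replicate 3 with the nearest at 4.55. BMPR1B was at 4.34 in sialyllactose replicate 7, above the nearest SST-low array at 3.73.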

How the results depend on the processing

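The number of probe sets at an adjusted p under 0.05 stayed at 0 in every alternative run but 1, among them each of the fits that left out 1 array. With the top 4 against the bottom 4 arrays it was 1, FBXO32, at a difference of 0.89 (limma adjusted p 0.0485, against 0.38 and an unadjusted p of 0.095 in the main comparison). The 633 probe sets at an unadjusted p under 0.05 became 411 with the dimmest 50% left out and 243 genes with probe sets averaged, both fits with fewer features. They were 563 to 746 with single arrays left out. SST by diet ran from -0.57 to 0.15 with single arrays left out. The replicate number as a block in limma gave 0 probe sets past the threshold and 603 at an unadjusted p under 0.05, left SST by diet at -0.16, and turned the sign of CHGB to 0.00113 and EGR1 to -0.011. Of 9 control arrays 3 correlated best with the sialyllactose array of their own number. The interaction with diet gave 0 probe sets under both other filters. Fits without both arrays above an SST level of 6, and the list values with arrays left out or covariates, were added after the data were seen. The ranking by a second SST probe set was not run, because 1 is annotated.

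Of the list medians, 474 values stayed within the spread between arrays and 14 moved. With the dimmest 50% left out, medians were -0.792 for dorsal genes, -0.636 for retinoic acid and -0.053 for growth hormone and IGF genes. That filter left 3 dorsal genes, without BMP4, and their median was the EFNB2 value of the main comparison. It left 6 of the 12 growth hormone and IGF genes. With ALDH1A1 as a covariate the medians were 0.105 for cones and -0.0656 for dorsal genes, and with FOS -0.09 for myelin. ALDH1A1 was then itself left out of the dorsal list. The 3 genes left differed by -0.79 (EFNB2), -0.08 (TBX2) and 0.17 (BMP4) in the main comparison, so their middle value there was already -0.08. With the interferon score the medians were 0.339 for ganglion cells, -0.158 for horizontal cells, -0.122 for Mueller glia, -0.064 for the clock and -0.0244 for the interferon list itself. That score is the mean deviation of the genes of the interferon list, so as a covariate it removes most of their median by construction. Within sialyllactose arrays the medians were 0.0966 for rods, -0.0166 for muscle and -0.14 for the clock. The cause of the remaining moves was not tested.

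Of the values of named genes, 1580 kept their sign and 51 did not, all of genes that passed no test. With ALDH1A1 as a covariate these were CHGB 0.0175, ELAVL4 -0.0602, GAD1 -0.127, GAD2 -0.0547, IGF1 0.00801, PAM -0.0383, PCSK1 -0.145, RBPMS -0.0299 and TTR -0.12. With FOS they were CHGA 0.00462, GAD1 -0.0606 and PAM -0.0413, and with TTR CHGB 0.0192. With the interferon score they were CHGA 0.0444, CHGB 0.0438, EGR1 -0.286, PCSK2 -0.0184, SCG2 0.0371, TFAP2C 0.215 and TTR -0.057. On the SST level they were CHGB 0.00486, EGR1 -0.526 and IGF1 0.011. With 9 against 9 arrays they were CHGB 0.026, EGR1 -0.305, IGF1 0.0526, SSTR3 0.0176 and SSTR5 -0.00333, and with 4 against 4 CHGB 0.0156, EGR1 -0.987, IGF1 0.0132 and NPY 0.235. Within control arrays they were CHGA 0.0283 and EGR1 -0.184, and within sialyllactose arrays CHGB 0.139, CNGA1 0.0449, ELAVL4 -0.0251, GAD2 -0.0537, OCA2 0.0565, PDYN 0.00501 and SSTR5 -0.00686. Without both arrays of highest SST they were CHGA 0.011, CHGB 0.00433, GAD1 -0.0295 and TTR -0.0225. CHGA was 0.0088 without the diet covariate, GFAP -0.00172 with probe sets averaged, and CHGB 0.00472 and EGR1 -0.0562 with array weights. With single arrays left out, CHGA ran from -0.0408 to 0.0209, CHGB from -0.0419 to 0.0574, EGR1 from -0.443 to 0.398, GAD1 from -0.0216 to 0.117, NPY from -0.25 to 0.0454 and SSTR5 from -0.0192 to 0.0832.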
